A study of Mus musculus with 4 samples.

Results

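T cells made up a small share of CD11b+ mouse splenocytes, carried CD3 RNA, and outside a small group of cells held few transcripts of CD11b itself. T cells are the cells whose deposited cell type was "T cell". There were 213 of them among 11631 cells, 174 of 4827 in steady state (3.61%, 95% interval 3.10 to 4.17%) and 39 of 6804 after GM-CSF (0.573%, 0.408 to 0.783%). T cells carry a T cell receptor that signals through the CD3 chains, and the coreceptors CD4 and CD8 mark the helper and cytotoxic lineages. The kinase Lck and the adaptor Lat carry the signal inward, and the transcription factors Tcf7, Lef1 and Bcl11b keep T cell identity. CD11b, the integrin alpha M chain encoded by Itgam, is above all a protein of neutrophils, monocytes, macrophages and some dendritic cells (DCs).

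Spleens were from mice of 8 to 12 weeks, and CD11b+ cells were sorted by flow cytometry and profiled by CITE-seq, which counts RNA and antibody tags in the same cells. The steady-state library came from mice without injection, and the GM-CSF library from mice given 3 daily subcutaneous injections of 10 µg GM-CSF and analysed 24 hours after the last. GM-CSF (granulocyte macrophage-colony stimulating factor) is a cytokine that acts on myeloid cells. There was 1 library per condition, so treatment and library cannot be told apart, no test was made, and every interval covers counting error only. Strain and number of mice are not stated with these libraries in the sources used here.

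The steady-state library held 22358903 UMIs (unique molecular identifiers, counted RNA molecules) and the GM-CSF library 35007567. T cells had a median of 3747 and 2357 UMIs, so 0 UMIs in the summed cluster allowed up to 4.13 and 30.9 CPM (counts scaled to 1000000 UMIs), taking 3 counts as the limit. The libraries shared 8 cell barcodes, of which 1 belonged to a T cell. Mitochondrial genes took more than 5% of the UMIs in 147 of 174 T cells (84.5%) in steady state and 29 of 39 (74.4%) after GM-CSF, against 9.39% and 24.3% of all other cells. B cells, the other lymphocytes named here, were like T cells in this, at 80.1% and 93.7%. With all such cells left out, T cells were 0.636% and 0.195% of the libraries, from 27 and 10 cells.

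The 3 CD3 genes that define these cells lie on chromosome 9 of GRCm38, in the GENCODE annotation Cd3d at chr9:44981786-44987339 on the plus strand, Cd3g at chr9:44969572-44980431 and Cd3e at chr9:44998740-45009627 on the minus strand. By these positions the starts of Cd3d and Cd3g are 1355 bases apart and face away from each other, and that of Cd3e is 27841 bases from that of Cd3d. Their promoters are printed because the 3 genes together identify the cells below. Each run is 300 bases of GRCm38.p6, from 250 before the RefSeq start to 50 after it, on the strand of the gene, and positions are counted from that start. The RefSeq start of Cd3e lies a few bases inside the GENCODE gene, so its window is shifted against the GENCODE position. Capitals mark 3 motifs on either strand, the TCF/LEF core CTTTGA, the ETS core AGGAAG and the E-box CACCTG.
Cd3d promoter, chr9:44981536-44981835, plus strand: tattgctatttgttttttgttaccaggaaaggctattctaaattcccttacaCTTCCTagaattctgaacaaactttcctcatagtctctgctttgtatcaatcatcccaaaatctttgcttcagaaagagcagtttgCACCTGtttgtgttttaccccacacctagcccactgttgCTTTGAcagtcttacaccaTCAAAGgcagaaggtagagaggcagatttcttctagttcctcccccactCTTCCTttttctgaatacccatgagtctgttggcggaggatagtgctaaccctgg
Cd3e promoter, chr9:45009562-45009861, minus strand: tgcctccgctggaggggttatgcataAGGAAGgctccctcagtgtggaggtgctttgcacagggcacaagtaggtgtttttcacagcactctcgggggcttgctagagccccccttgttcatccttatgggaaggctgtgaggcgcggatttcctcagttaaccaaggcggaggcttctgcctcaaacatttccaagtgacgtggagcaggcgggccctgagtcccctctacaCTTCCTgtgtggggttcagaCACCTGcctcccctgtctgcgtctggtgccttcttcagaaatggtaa
Cd3g promoter, chr9:44980382-44980681, minus strand: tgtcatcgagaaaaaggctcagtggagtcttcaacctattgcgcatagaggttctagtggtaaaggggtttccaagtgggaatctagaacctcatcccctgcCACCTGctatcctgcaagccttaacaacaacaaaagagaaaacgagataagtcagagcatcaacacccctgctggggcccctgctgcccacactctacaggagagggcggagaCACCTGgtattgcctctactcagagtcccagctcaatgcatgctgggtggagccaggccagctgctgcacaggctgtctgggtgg
The Cd3d window held 2 TCF/LEF cores, at -73 and -54 from the start, 2 ETS cores and 1 E-box. The Cd3e window held 2 ETS cores and 1 E-box, and the Cd3g window 2 E-boxes. Of 32851 promoter windows of the same length, 16.0% held the TCF/LEF core, 35.4% the ETS core and 20.2% the E-box. A match describes letters and is not evidence of binding.

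CD3 RNA went with the deposited label, which the authors gave to clusters made from the same RNA, so this is a description. A UMI of Cd3d, Cd3e or Cd3g was found in 172 of 174 T cells in steady state (98.9%) and in 39 of 39 after GM-CSF, against 1.87% and 2.87% of all other cells, whose median depths were 3319 and 4958 UMIs. With each cell thinned to 1000 UMIs and shallower cells left out (1 T cell and 37 and 578 other cells), the shares were 76.3% and 84.6% in T cells and 0.693% and 0.921% in all other cells. The median T cell carried 6 CD3 UMIs in steady state and 5 after GM-CSF. Among the other types, the neutrophils of the GM-CSF library stood highest, with a CD3 UMI in 149 of 893 cells (16.7%, or 4.32% thinned). Of the label's other markers, Cd4 is described below, and Trac is not analysed here, nor are Trbc1, Trbc2, Trdc and the Tcrg constant genes, so alpha beta and gamma delta T cells were not separated.

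**Figure D1:**
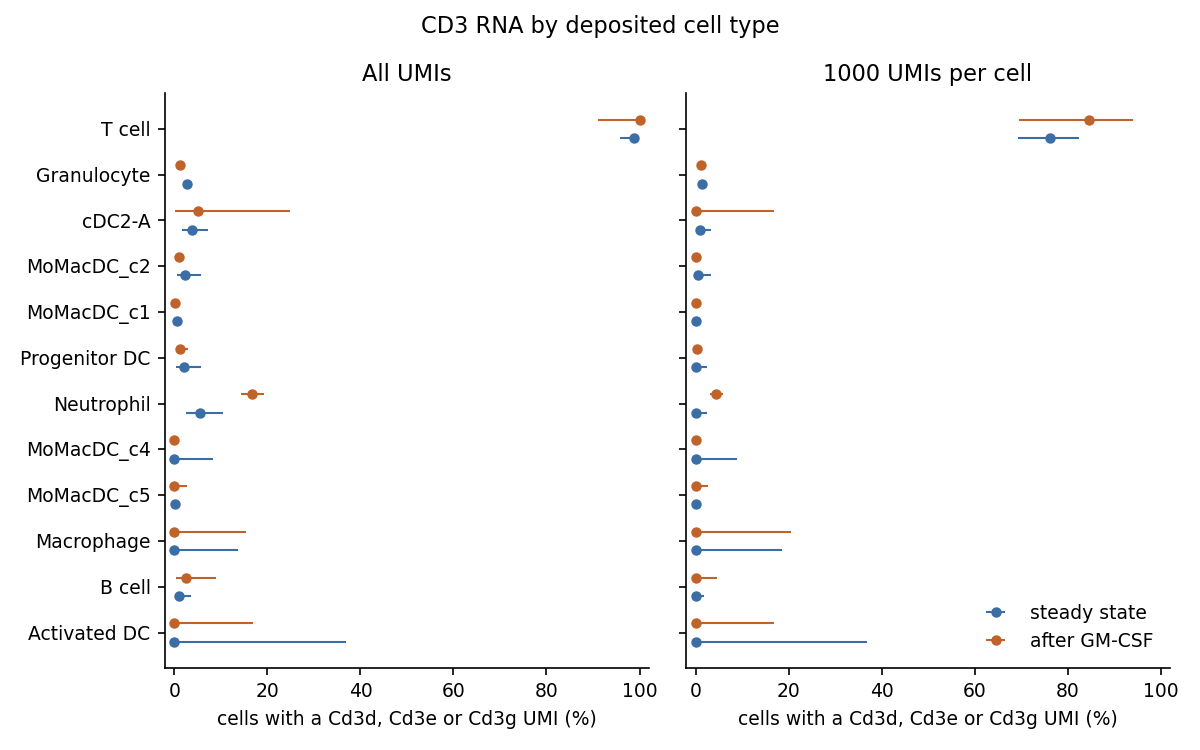
Percentage of cells with a Cd3d, Cd3e or Cd3g UMI (x axis) in each deposited cell type (y axis), with all UMIs (left) and with 1000 UMIs per cell (right). Points are libraries (blue steady state, orange after GM-CSF) and bars are exact 95% intervals for counting error. T cells stand at 98.9% and 100% with all UMIs, and neutrophils after GM-CSF at 16.7%.

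Both T cells without a CD3 UMI were steady-state cells with UMIs of Thy1, Il7r, Gata3 and Tcf7. Neither had a UMI of Lck or Lat. One of them, called a doublet by Scrublet (described below), also had a UMI of Il1rl1, the IL-33 receptor. Thy1, Il7r and Gata3 are shared by T cells and innate lymphoid cells, and with 4706 and 4753 UMIs these cells were deeper than the median T cell.

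The genes that stood out most from the rest of the spleen fraction were T receptor, coreceptor and T lineage genes. Since the clusters were made from these genes, the ratios are a description. In steady state 745 of 4730 genes (15.8%) were at least 2-fold higher in T cells than in all other cells, and 513 (10.8%) at least 2-fold lower. After GM-CSF 109 of 521 genes (20.9%) were higher and 27 (5.18%) lower. Of the 521 genes with at least 20 UMIs in both, 76 were at least 2-fold higher in both libraries. By the lower of their ratios in both libraries, with at least 5 UMIs after GM-CSF, the leading 15 genes were Dapl1, Cd8b1, Cd3e, Cd8a, Bcl11b, Themis, Cxcr6, Izumo1r, Nsg2, Cd3g, Lef1, Tcf7, Camk4, Cd3d and Lat.

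Cd3d, a signalling chain of the receptor, stood at 718 CPM (658 to 782) in steady-state T cells and 3.56 CPM in all other cells, a ratio of 201. After GM-CSF it stood at 854 CPM (680 to 1059) against 6.33, a ratio of 135. Cd3e, the chain most used to identify T cells, was at 235 and 257 CPM in T cells and at 0.185 and 0.0286 CPM in all other cells. Cd3e thus had larger ratios to the other cells than Cd3d in both libraries, 1134 and 6107. Dapl1, a gene of resting T cells, had 199 UMIs in steady state and 11 after GM-CSF in T cells and none in any other cell, at least 1974-fold and 1317-fold higher (against 3 counts in all other cells of the library).

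Receptor signalling genes were higher as a group, 17 of 18 tested in steady state (median ratio 29.1) and 8 of 8 after GM-CSF, against 15.8% and 20.9% of all genes. Themis, which tunes receptor signals in development, had a ratio of 684 in steady state, Lat 102, the costimulatory receptor gene Cd28 62.8 and Lck 20.1. Lcp2, the adaptor SLP-76 that myeloid cells also use, was at 0.824. T cells were the highest cluster for 12 of these 18 genes, and for 12 of the 18 the highest other cluster was the one labelled cDC2-A, which carries NK cell genes. Lck stood at 398 CPM in T cells and 365 in cDC2-A, while the Tec kinase gene Txk was lower in T cells, at 294 against 610. The same 2 clusters lay further apart for Bcl11b, at 572 and 6.99 CPM, and for Tcf7, at 707 and 60.6.

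Of 11 tested T lineage transcription factors, 9 were at least 2-fold higher in steady state. Bcl11b, needed for T cell commitment, had a ratio of 800, Lef1 of 227 and Tcf7 of 211. Runx3, a factor of CD8 T cells that myeloid cells also express, was at 1.73, and Zbtb7b, the factor of the CD4 lineage known as ThPOK, at 0.588. Both genes are compared between the coreceptor classes below.

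Genes of resting, recirculating T cells were present. Il7r, the receptor for the survival cytokine IL-7, stood at 404 CPM in steady-state T cells against 1.16 in all other cells, and the lymphoid homing receptor gene Ccr7 at 367 against 20.1. S1pr1, which lets T cells leave lymphoid organs, stood at 354 against 11.1. Of the 13 members of this list 9 were at least 2-fold higher, and Cd44 (0.175) and Ly6c2 (0.470) were at least 2-fold lower than in the other cells. The cell cycle list had 83 UMIs in 55 steady-state T cells (31.6%) and 7 UMIs in 6 cells after GM-CSF. It summed to 114 and 72.0 CPM, against 315 and 1255 in all other cells. Of its 83 UMIs 40 were of Pcna, a DNA replication clamp, at a ratio of 1.15 to the other cells, and the proliferation marker Mki67 had 0 UMIs in steady state and 1 after GM-CSF.

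A group of 15 steady-state T cells (8.62%, 4.90 to 13.8%) carried myeloid transcripts. Each had 57 to 419 UMIs of the neutrophil and monocyte lists, among them S100a8, S100a9, Lyz2 and Csf1r, and the next highest T cell had 21. The highest T cell of the GM-CSF library had 6. The 15 cells held 92.2% of the cluster's neutrophil and monocyte list UMIs in steady state, although all of them also had 1 to 16 CD3 UMIs. They had a median of 7147 UMIs against 3630 in the other 159, and Scrublet, which calls a doublet from the same transcripts, called 14 of them. Antibody tags, which were not used for clustering, were also higher in them: the median Ly6C tag count was 417 against 36, and that of MHC II 33 against 11. The limit of 50 UMIs was chosen after the data were seen, and whether these were doublets was not tested. It counts only UMIs of these lists. In the GM-CSF library Scrublet called 1 T cell, and the highest tag counts were 296 for CD11c and 149 for MHC II. The T cell medians there were 5 and 15. In steady state the highest MHC II tag count outside the 15 cells was 661. Values that turn on the 15 cells are given with and without them.

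**Figure D2:**
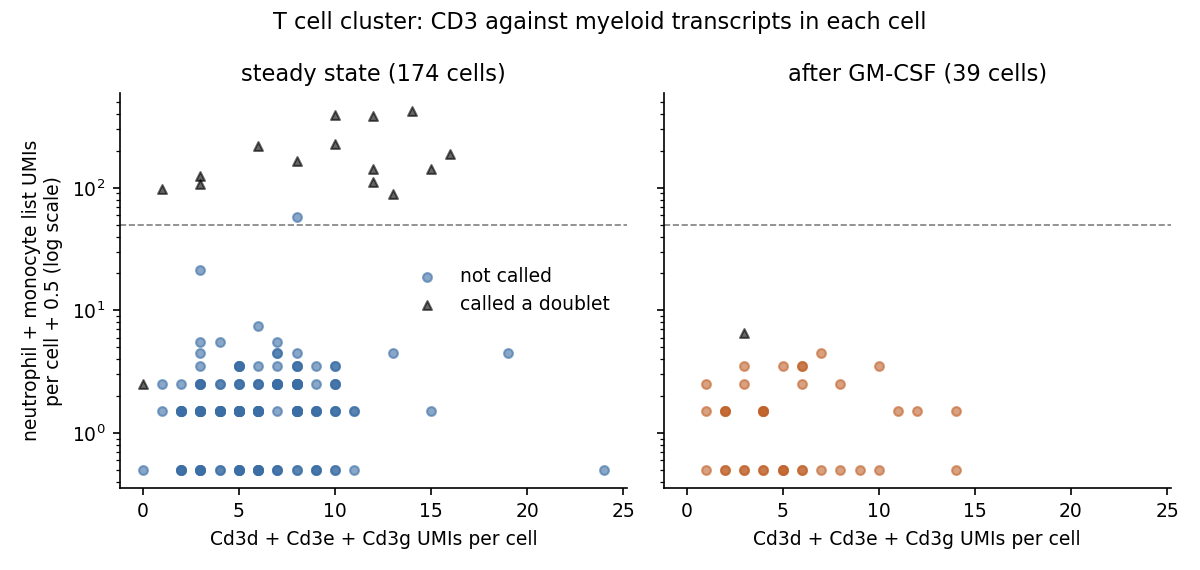
UMIs of Cd3d, Cd3e and Cd3g (x axis) against UMIs of the neutrophil and monocyte lists plus 0.5 (y axis, log scale) in each T cell of the steady-state (left) and GM-CSF (right) library. Triangles are Scrublet doublet calls and the dashed line is 50 UMIs. In steady state 15 cells lie above the line, at 57 to 419 UMIs, and none after GM-CSF.

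The transcript of CD11b itself, Itgam, lay almost wholly in these cells. Of 32 Itgam UMIs in steady-state T cells, 29 were in 13 of the 15 myeloid-rich cells, and the other 159 T cells held 3 UMIs in 3 cells (1.89%, 0.391 to 5.41%). After GM-CSF 0 of 39 T cells had an Itgam UMI (0 to 9.02%). Itgam stood at 44.0 CPM in all steady-state T cells, 5.04 without the myeloid-rich cells, and 383 in all other cells. Csf2rb and Csf2ra, the chains of the GM-CSF receptor, followed the same pattern. Csf2rb had 17 UMIs in steady-state T cells and 0 without the 15 cells. Both genes had 0 UMIs after GM-CSF, where 0 counts allow up to 30.9 CPM, so no lower level of Csf2rb is shown there. Protein CD11b had no tag among the 5 tags, so it was not measured per cell.

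Neutrophil and monocyte list RNA in steady-state T cells lay mostly in the myeloid-rich cells, and B cell list RNA was low. For scale, the 3 CD3 genes summed to 1523 CPM in steady-state T cells. The neutrophil list summed to 3065 CPM in steady-state T cells, to 266 without the myeloid-rich cells, and to 360 CPM in the GM-CSF library. The monocyte and macrophage list summed to 1204, 140 and 92.6 CPM in the same order. The myeloid-rich cells were chosen by these same lists, so the fall of these sums without them was set by that choice. The B cell list summed to 19.3 and 10.3 CPM, and none of the basophil and mast cell, eosinophil, or erythroid and platelet list genes had a UMI in T cells. The NK cell list summed to 750 CPM in steady state and 130 without the 15 cells, and its leading genes there were Tyrobp and Fcer1g, which myeloid cells share.

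Cd4 and Cd8 UMIs split the T cells into helper and cytotoxic classes, with many cells showing neither. In steady state 47 cells had Cd4 UMIs only (27.0%, 20.6 to 34.3%), 70 had Cd8a or Cd8b1 UMIs only (40.2%, 32.9 to 47.9%), 3 had both and 54 had neither (31.0%). After GM-CSF 16 cells were Cd4 only (41.0%, 25.6 to 57.9%), 11 Cd8 only (28.2%, upper limit 44.9%), 0 both and 12 neither (30.8%). The intervals of the libraries overlapped for each class. Without the myeloid-rich cells the steady-state classes held 43, 62, 3 and 51 cells, nearly the same shares. Cd8 was close to particular to T cells, with a UMI in 4 of 4653 other cells in steady state and 4 of 6765 after GM-CSF. Cd4 was not, since progenitor DCs had a Cd4 UMI in 54.0% and 34.6% of cells at a median of 7014 and 7152 UMIs. At 1000 UMIs per cell 11.6% of steady-state T cells had a Cd4 UMI and 25.4% a Cd8 UMI. Whether cells with neither lacked both coreceptors or had them below detection was not tested.

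The classes differed in effector genes and some factors of their lineages, which were not used to make the classes but belong to the same RNA. Without the myeloid-rich cells, 118 of 2910 genes (4.05%) were at least 2-fold higher in Cd8 only than in Cd4 only steady-state cells, and 154 (5.29%) at least 2-fold lower. Of 19 cytotoxic genes 6 had the minimum of 20 UMIs over both classes, and all 6 were higher in Cd8 only cells. Their median ratio was 8.44 against 0.972 over all genes. Nkg7, Ccl5, Eomes and Ctsw, given below, passed this minimum through the Cd8 only class alone. The whole cytotoxic list had 34 UMIs in Cd4 only cells and 500 in Cd8 only cells. The minimum thus partly set the direction. Nkg7, a protein of cytotoxic granules, had 154 UMIs in 48 of 62 Cd8 only cells (586 CPM) and 7 UMIs in 3 of 43 Cd4 only cells (44.2 CPM), a ratio of 12.4 (6.28 to 33.5). Ccl5, a chemokine of memory CD8 T cells, had 156 UMIs in 15 Cd8 only cells and 5 in 1 Cd4 only cell, a ratio of 17.2 (7.89 to 58.7). Ccl5 thus came from few cells and Nkg7 from most of the class. The NK receptor chain gene Klrd1 had a ratio of 7.84 and the cathepsin gene Ctsw 5.32. Eomes, a factor of memory CD8 T cells, had 22 and 1 UMIs, a ratio of 9.04 (2.14 to 547).

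A few lineage factors divided as well. Of 10 tested T lineage transcription factors 1 was at least 2-fold higher in Cd8 only and 1 in Cd4 only cells. The shares over all genes were 4.05% and 5.29%. Zbtb7b, under the minimum of 20 UMIs, had 15 UMIs in 14 Cd4 only cells and 0 in Cd8 only cells, at least 8.29-fold higher (against 3 counts). Runx3 was 2.20 times as high in Cd8 only cells (1.25 to 4.28), and Gata3, a factor of helper T cells, was at 0.328 (0.1603 to 0.625). The Ly6 genes split by class, with Ly6c2 at 464 CPM in Cd8 only and 31.6 in Cd4 only cells, and Ly6c1 at 0 UMIs in Cd8 only and 23 in Cd4 only cells. Ly6c1 and Ly6c2 are near-identical neighbours, so how reads were shared between them is uncertain. Izumo1r, the folate receptor 4 gene of regulatory and helper T cells, stood at 22.8 and 139 CPM, and Ccr9, a gut homing receptor, at 160 and 37.9.

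Of the 13 naive and memory circulation genes 1 was at least 2-fold higher in Cd8 only cells (Ly6c2) and 3 in Cd4 only cells (Igfbp4, Cd44 and Ly6c1). The shares over all genes were 4.05% and 5.29%. Il7r stood at 518 CPM in Cd8 only and 398 in Cd4 only cells, a ratio of 1.30 (0.958 to 1.78), and Lef1 at 559 and 676, a ratio of 0.827 (0.641 to 1.07). Of 7 tested interferon response genes, 4 (Isg15, Ifit1, Zbp1 and Bst2) were at least 2-fold higher in Cd4 only cells, beside 5.29% of all genes. Isg15, a ubiquitin-like protein induced by interferon, had 36 UMIs in 8 of 43 Cd4 only cells and 6 UMIs in 4 Cd8 only cells. It thus passed the minimum of 20 UMIs through the Cd4 only class alone, which partly set its direction.

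**Figure D3:**
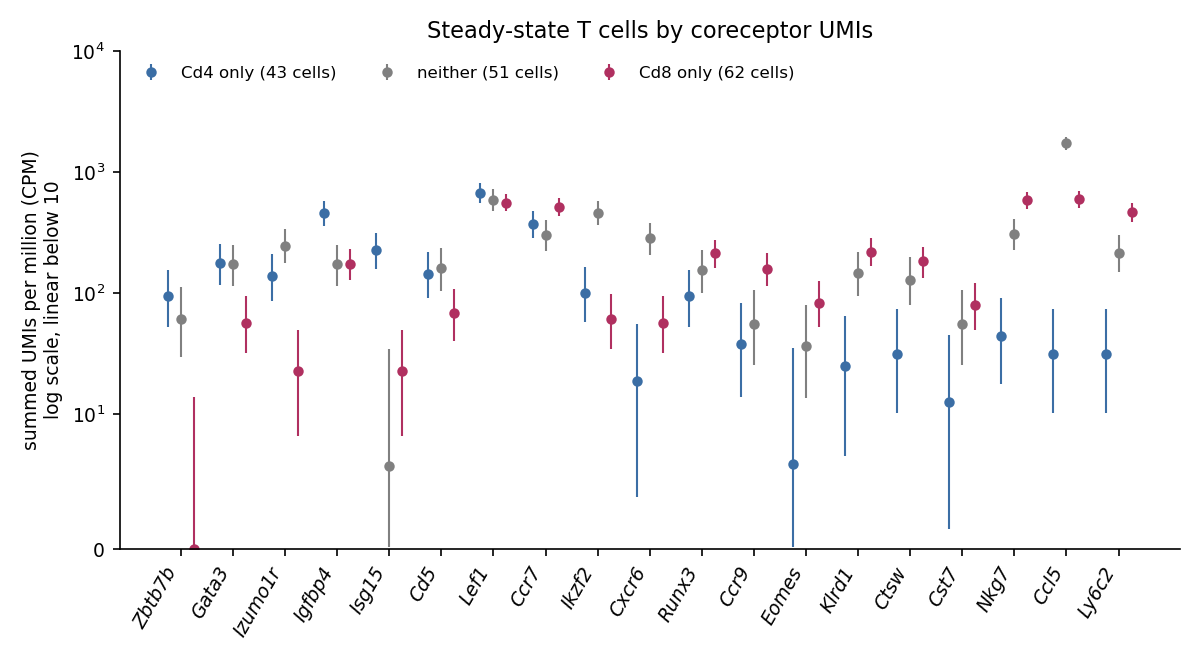
CPM of summed UMIs (y axis, log scale above 10) of 19 genes (x axis) in steady-state T cells with Cd4 UMIs only, neither coreceptor, or Cd8 UMIs only, without the 15 myeloid-rich cells. Bars are exact Poisson 95% intervals. Nkg7, Ccl5, Klrd1 and Ly6c2 lie higher in Cd8 only than in Cd4 only cells, and Zbtb7b has 0 UMIs in Cd8 only cells.

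The GM-CSF library gave the same direction for the leading genes with few UMIs. Nkg7 had 21 UMIs in 7 of 11 Cd8 only cells and 0 in 16 Cd4 only cells, at least 7.22-fold higher, and Ccl5 16 and 0, at least 5.50-fold higher. Izumo1r had 0 and 16 UMIs. Isg15 went the other way, with 4 UMIs in Cd8 only and 0 in Cd4 only cells, where 3 counts allow up to 85.0 CPM.

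The Ly6C protein tag was higher in cells with Ly6c RNA in each class. In steady state without the myeloid-rich cells, Cd8 only cells with a Ly6c1 or Ly6c2 UMI had a lowest Ly6C tag count of 16, a median of 313 and a highest of 1346 (23 cells), and those without had 13, 27 and 136 (39 cells). A tag count of at least 100 was found in 19 of the 23 and in 2 of the 39. In Cd4 only cells the medians were 59 (15 cells, 21 to 123) and 27.5 (28 cells, 10 to 310), so Cd8 only cells with Ly6c RNA stood above Cd4 only cells with Ly6c RNA. Cells with Ly6c RNA were also deeper in the Cd8 only class, at a median of 4784 against 3630 UMIs. After GM-CSF only 5 T cells had Ly6c RNA, with a median tag count of 58 against 8 in the other 34.

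**Figure D4:**
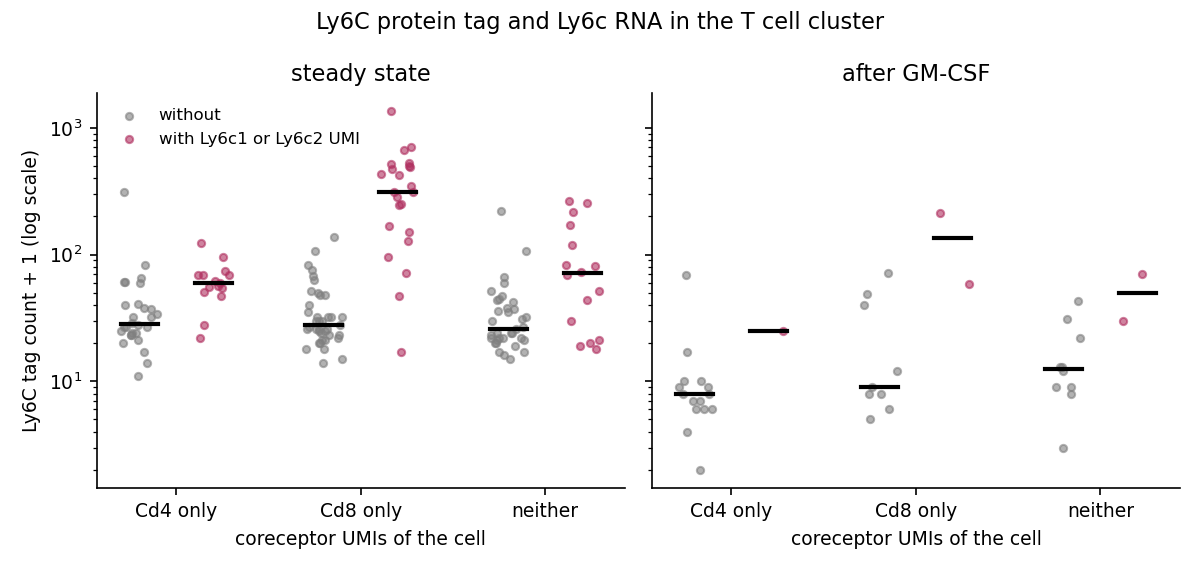
Ly6C antibody tag count plus 1 (y axis, log scale) in T cells by coreceptor class (x axis), with (red) and without (grey) a Ly6c1 or Ly6c2 UMI, in steady state (left, without the 15 myeloid-rich cells) and after GM-CSF (right). Each point is a cell and lines are medians. Cd8 only cells with Ly6c RNA in steady state have a median count of 313 and those without 27.

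Cells with neither coreceptor carried UMIs of effector, regulatory and innate-like genes. In steady state their cytotoxic list summed to 2637 CPM (2392 to 2899) against 1903 in Cd8 only and 215 in Cd4 only cells. Ccl5 had 280 UMIs in 12 of 51 such cells, so a few cells set that sum. After GM-CSF the order was the other way, with the cytotoxic list at 1230 CPM (852 to 1719) in neither and 1695 (1287 to 2191) in Cd8 only cells, and these intervals overlapped. The regulatory list stood at 938.5 CPM in neither and 410.4 in Cd4 only cells in steady state, and at 289 (125 to 570.3) and 1246 (905 to 1673) after GM-CSF, again in the other order. The innate-like list was highest in neither in both libraries, at 1229 and 1664 CPM. Cxcr6, a homing receptor of tissue and innate-like T cells, stood at 284 CPM in them against 57.1 and 18.9, and Ikzf2, the factor Helios, at 463 against 60.9 and 101.

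Cells with a Ccl5 UMI numbered 31 in steady state and 5 after GM-CSF, and are described here against the other T cells. In steady state Nkg7 was found in 28 of the 31 and in 44 of the other 143, and Ly6c2 in 21 and 22. The activating NK receptor gene Klrk1 was found in 10 and 0, Klra7, an NK receptor of the Ly49 family, in 6 and 0, and Tbx21, the type 1 factor T-bet, in 10 and 1. Igfbp4, a gene of naive T cells, was found in 3 of the 31 and 53 of the 143. Median depth was 4739 UMIs with and 3634 without Ccl5, and 3 of the 31 were myeloid-rich. After GM-CSF all 5 Ccl5 cells had Nkg7 UMIs.

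Defining markers of innate-like T cells were rare. Of the 17 members of the wider innate-like list, 9 had the minimum of UMIs in steady-state T cells to be tested. Of these 7, such as Cxcr6 and Slamf6, were at least 2-fold higher in T cells than in other cells, beside 15.8% of all genes. For 6 of the 9 the highest other cluster was cDC2-A. By the summed CPM of this list, T cells ranked only 4 among the cell types. A UMI of Zbtb16, Klrb1c or Il23r was found in 8 of 174 T cells in steady state (4.598%, 2.01 to 8.86%) and 3 of 39 after GM-CSF (7.69%), against 4.15% and 1.90% of granulocytes at a median of 1770 and 1229 UMIs. The steady-state share was thus no higher than background. In cDC2-A the shares were 86.4% and 85.0%. Zbtb16, the factor of NKT cells, was found in 3 and 2 T cells, and all 5 had a Cxcr6 UMI, as did 25 and 5 T cells in all.

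Foxp3, the defining factor of regulatory T cells, had 5 UMIs in 4 steady-state T cells and 0 in 39 after GM-CSF, which leaves a share of up to 9.02% there. The regulatory list as a whole summed to 398 CPM in steady state (469 without the myeloid-rich cells) and 679 (525 to 864) after GM-CSF. In steady state 4 of the 10 regulatory list members had the minimum of UMIs in T cells to be tested. All 4 were at least 2-fold higher in T cells than in other cells, beside 15.8% of all genes. The ratios were 37.6 for Ikzf2, 31.9 for Ctla4, 4.39 for Tnfrsf18 and 486 for Izumo1r. The minimum was set on T cells, so members with few UMIs there were not tested. Of the 30 steady-state cells with Ikzf2 UMIs 4 had a Foxp3 UMI. Effector cytokines had few UMIs. Il5, Il13, Il17a, Il17f, Il22 and Il21 had 0 UMIs in T cells of both libraries, and Ifng had 10 UMIs in 4 steady-state cells and 6 UMIs in 2 cells after GM-CSF.

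Between the libraries most T cell genes stood within 2-fold, the CD3 and CD8 genes, Bcl11b, Tcf7 and Lef1 among them, while Ccr7 and Dapl1 were at least 2-fold lower after GM-CSF. Of 3777 genes with at least 30 UMIs over both, 137 (3.63%) were at least 2-fold higher after GM-CSF and 464 (12.3%) at least 2-fold lower, or 417 with genes at 0 UMIs after GM-CSF set to 3 counts. Without the myeloid-rich cells they were 102 (3.22%) and 322 (10.2%) of 3166. The median ratio over all genes was 0.944. Since a gene could pass through the larger steady-state sum alone, more genes had room to be lower than higher.

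Receptor genes stood within 2-fold. Cd3d was at a ratio of 1.20 (0.932 to 1.502), Cd3e at 1.11, Cd8a at 0.927 and Cd8b1 at 0.926, while Cd3g stood at 569.5 and 1070 CPM, a ratio of 1.89 (1.501 to 2.34). Of 18 signalling genes 1 was higher (Sit1, 3.65) and 0 lower, with a median of 0.939, close to all genes. Bcl11b, Tcf7 and Lef1 were at 0.817, 0.865 and 0.844.

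Of the 13 naive and memory circulation genes 3 (Ccr7, Dapl1 and Ly6c2) were at least 2-fold lower after GM-CSF and 0 higher, beside 12.3% and 3.63% of all genes, and the list's median ratio was 0.898 against 0.944 over all genes. For Ccr7 the steady-state level was 367 CPM (325 to 414) and the GM-CSF level 165 CPM (94.1 to 267), a ratio of 0.461, and Dapl1 at 274 and 113, a ratio of 0.431. Ccr7 was lower in all other cells too, at 0.210, and Dapl1 has no UMI there. Ly6c2 stood at 290 and 72.0 CPM, and Il7r, at 404 and 278, was within 2-fold. Leaving out the myeloid-rich cells kept Ccr7 and Dapl1 at 0.405 and 0.392. Igfbp4, also a gene of naive T cells, was at 1.28 (0.807 to 1.91). Cd44, an adhesion receptor that memory T cells raise, was at 0.973, and at 2.30 without the myeloid-rich cells.

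Early activation genes were at least 2-fold lower after GM-CSF for 4 of 11 members, beside 12.3% of all genes, Fos (0.230), Nr4a1 (0.141, 0.00237 to 0.543), Egr1 (0.343, 0.0327 to 1.05) and Myc (0.270, 0.00451 to 1.07), of which Fos, Nr4a1 and Egr1 were also lower in all other cells. These are transcription factors that cells induce within minutes to hours of stimulation, and the last 3 had 1, 2 and 1 UMIs after GM-CSF and passed the minimum through steady state. The intervals of Egr1 and Myc reached above 1. Without the myeloid-rich cells 2 of 9 remained, Fos and Myc. Of 8 tested cytotoxic genes Ccl5 and Ctsw were at least 2-fold lower and Cxcr3 was higher, with Gzma at 0 UMIs after GM-CSF set to 3 counts. Ccl5 was at 0.435 (0.294 to 0.606), Ctsw at 0.321 (0.0560 to 0.839), and Nkg7 at 0.791 (0.498 to 1.17). Gzma, the granzyme A gene, had 38 UMIs in steady state and 0 after GM-CSF, at least 1.69-fold lower, and 6 of the 38 lay outside the myeloid-rich cells.

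The genes higher after GM-CSF were few and mostly low. AY036118 stood at 341 and 2079 CPM, a ratio of 6.10, and was 3.28 times as high in all other cells. Cxcr3, the chemokine receptor of type 1 T cells, had 18 and 12 UMIs, a ratio of 5.05 (2.19 to 10.9). Rora, a factor of innate-like and helper T cells, was at 3.49 (1.44 to 7.48), Maf, which drives IL-4 and IL-10, at 3.14 (1.53 to 5.89), and Id3, an inhibitor of E proteins, at 3.01 (1.64 to 5.13). The other 7 of the 10 highest were Grpel1, Bscl2, Ccdc69, Sit1, Ybx3, Acp1 and Ndufs8, at 3.31 to 4.30 with 9 to 13 UMIs after GM-CSF. Ikzf2 was at 2.01 (1.31 to 2.94), and 1.67 without the myeloid-rich cells.

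The 10 lowest genes were mostly myeloid, and the 15 cells held most of the UMIs of 9 of them. Lyz2, a lysozyme of macrophages and neutrophils, was at 0.0362 (0.00639 to 0.0911), and 0.327 without those cells. S100a9, a neutrophil protein, was at 0.0686 and 0.977. Both genes are in the lists by which those cells were chosen, so these moves follow from that choice. Il1b, Apoe, Fgr, Fgl2 and Tgfbi had 7, 11, 7, 10 and 3 steady-state UMIs outside those cells and 0 after GM-CSF, under the level that 0 counts allow there, so no fold is given. Ifitm3 was at 1.22 without those cells, and Lst1 then had 0 UMIs in both libraries. Only P2ry10, a lipid receptor gene of lymphocytes, was also among the 10 lowest without those cells, with 60 UMIs in 48 steady-state T cells and 0 after GM-CSF, at least 2.67-fold lower.

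**Figure D5:**
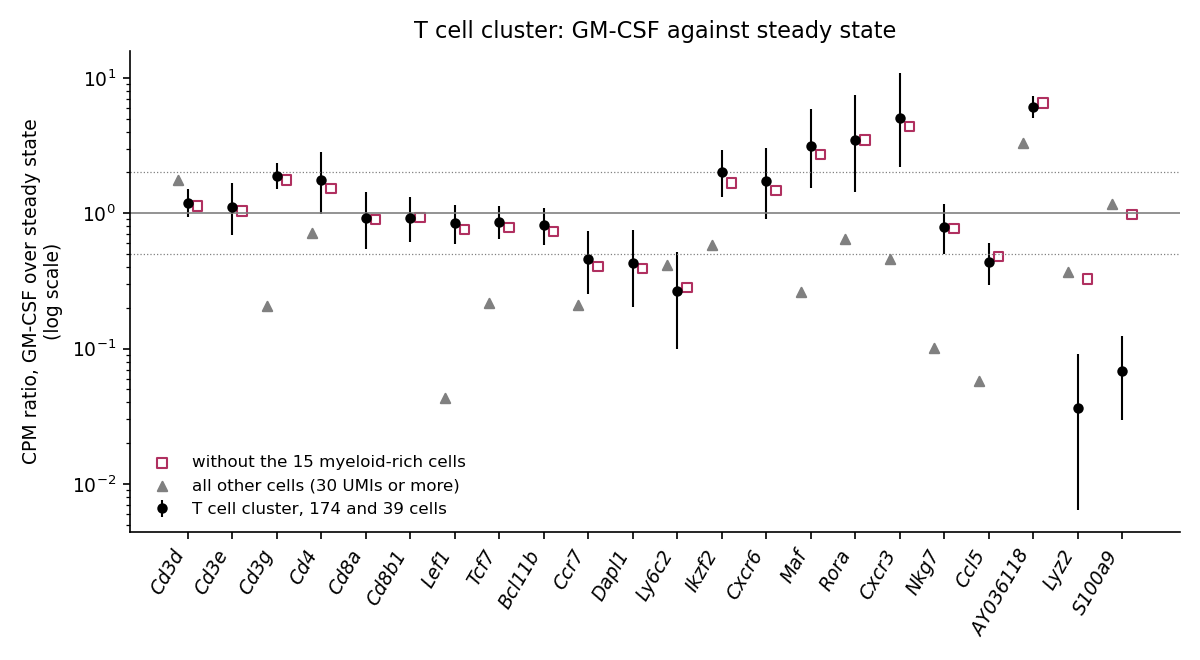
Ratio of CPM after GM-CSF to steady state (y axis, log scale) for 22 genes (x axis) in T cells, with exact 95% intervals (circles), without the 15 myeloid-rich cells (squares), and in all other cells with at least 30 UMIs (triangles). Dotted lines mark 2-fold. Ccr7 and Dapl1 lie at 0.461 and 0.431, and S100a9 moves from 0.0686 to 0.977 without the myeloid-rich cells.

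MHC class II RNA was far lower in T cells than in all other cells, and higher in T cells after GM-CSF than in steady state. The class II list summed to 143 CPM (63.9 without the myeloid-rich cells) and 514.5 CPM, against 5755 and 18281 in all other cells. After GM-CSF the highest T cell alone held 23 of the list's 50 UMIs. Without doublet calls the sums were 65.3 CPM in steady state and 286 CPM after GM-CSF. Both tested members were at least 2-fold higher after GM-CSF, Cd74 at 2.31 (1.07 to 4.36) and H2-Ab1 at 2.20 (0.765 to 4.98), and Cd74 was at 7.29 without the myeloid-rich cells and 2.87 in all other cells. No T cell of either library reached the lower quartile of MHC class II list UMIs in activated and progenitor DCs (165 and 135 UMIs), the highest T cells having 43 and 23. Cd74, the invariant chain, had a UMI in 6.90% of T cells in steady state and 23.1% after GM-CSF, beside 5.96% and 11.4% of granulocytes. Its level stood at 55.0 and 123 CPM in T cells (16.8 in steady state without the myeloid-rich cells) and 2415 and 6923 in all other cells. The median tag counts of T cells in steady state and after GM-CSF were 0 and 1 for CD115, the M-CSF receptor, and 1 and 5 for CD11c, an integrin of DCs. The Ly6C medians were 42 and 8 and those of MHC II 12 and 15, while the lectin CD301b gave 0 and 3. Tag medians of other clusters shifted as well. In the same order, B cells had Ly6C at 24 and 8, CD11c at 1 and 8, CD115 at 0 and 2, and CD301b at 0 and 3. Granulocytes had Ly6C at 176 and 82 and CD11c at 2 and 10. Ly6C went the other way in MoMacDC_c4 (46 and 74), as did CD11c in activated DCs (206.5 and 206) and progenitor DCs (381.5 and 372). Whether the shifts in T cells were particular to them was not tested. In steady state no cell type had a lower median than T cells for CD115, CD11c or CD301b, where T cells were tied with others, and 4 types were lower for Ly6C and 3 for MHC II. After GM-CSF T cells had the lowest median of CD115 and CD11c, were tied with B cells as lowest for Ly6C and CD301b, and stood above granulocytes and neutrophils for MHC II.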

How the data were processed

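RNA and 5 antibody tags were measured in sorted CD11b+ spleen cells, in 1 steady-state and 1 GM-CSF library. The deposited RNA and tag matrices hold raw counts, which the authors made with Cell Ranger 3.0.2 on mm10 (RNA) and CITE-seq-Count (tags). The authors removed cells under 200 or over 5000 genes or over 15% mitochondrial reads, then integrated the libraries on 2000 variable genes each (Seurat 3.6.0), clustered the cells and named the clusters. Cell types are the authors' labels, and the cell table's 2 condition labels were matched to the libraries.

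Raw counts were summed over cells and divided by their total (CPM). CPM carry exact Poisson, shares exact binomial (Clopper-Pearson) and ratios exact conditional binomial 95% intervals, with 0.5 counts added to each sum for a ratio. Genes needed 20 UMIs in T cells, or over both classes, and 30 over both libraries. A gene was called at a 2-fold difference. To match depth, each cell was thinned to 1000 UMIs (seed 20). Intervals of ratios and calls at 2-fold were checked on simulated data. Members and the 28 gene lists were chosen with earlier results of these data known. All list genes may be named, beside the 15 highest ratios to other cells and the 10 highest and lowest between libraries. Doublets were called by Scrublet, 141 cells (2.92%) and 186 (2.73%), and kept. These calls are unstable in steady state. Python 3.11.15, scanpy 1.11.5 and scipy 1.17.1 were used. Tables of the authors' monocyte, macrophage and DC subset were not used. 2 list genes are not reported here and were left out of the lists and counts of list members.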

Additional observations from a re-analysis of the deposited data

Results flagged for a closer look

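3 named genes differed at least 2-fold between the libraries in one direction in T cells and at least 2-fold in the other direction in all other cells, out of 137 with at least 30 UMIs in each. The differences between T cells and other cells were not tested. Cxcr3, a chemokine receptor of type 1 T cells, had a GM-CSF to steady state ratio of 5.05 in T cells and 0.457 in all other cells. Maf was at 3.14 and 0.264, the other cells' level being led by macrophages, at 1110 CPM in steady state. Lcn2, a neutrophil granule gene, was at 0.325 (0.00541 to 1.31) and 2.57, with 34 UMIs in steady-state T cells and 1 after GM-CSF, and was at 3.67 in T cells without the 15 myeloid-rich cells.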

How the results depend on the processing

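No paired analysis was possible because each condition had 1 library and no result came from a test. For the same reason no library could be left out. Leaving out cells with 50 or more neutrophil and monocyte UMIs was chosen after seeing the data, and the other settings were planned. Of the values that answer a comparison, 84 moved little and 34 moved beyond their counting interval or by over 1.5 times. The cause of these moves was not tested, except that thinning and higher minima leave fewer UMIs or genes.

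With cells over 5% mitochondrial UMIs left out, T cells were 0.636% of the steady-state and 0.195% of the GM-CSF library, the CD3 share in steady state was 92.6%, the Cd8 share 33.3%, and the innate-like share 11.1% in steady state and 0% after GM-CSF. Thinned to 1000 UMIs, the CD3 share was 76.3% and 84.6%, the Cd4 share 11.6% and 23.1%, and in steady state the Cd8 share was 25.4% and the innate-like share 0.578%. With at least 2 UMIs required, the Cd4 share was 12.6% and 7.69% and the innate-like share 1.72% and 0%. That setting does not apply to the class II range. Genes at least 2-fold higher than in other cells numbered 379 in steady state and 33 after GM-CSF at a minimum of 50 UMIs, and 372 and 71 thinned. Between libraries 27 genes were higher and 177 lower at a minimum of 60 UMIs, and 27 and 90 thinned.

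Without doublet calls the steady-state CPM was 353 for the neutrophil list, 142 for the monocyte and macrophage list, 152 for the NK cell list, 210.9 for the conventional DC list and 65.3 for the MHC class II list, which stood at 286 after GM-CSF. Without the myeloid-rich cells these were 266, 139.5, 129.5 and 63.9 for the neutrophil, monocyte and macrophage, NK cell and class II lists. Of the named genes' ratios 2 changed direction, Lst1 to 2.11 without doublet calls and Ifitm3 to 1.22 without the myeloid-rich cells. Depth limits the GM-CSF library most, where 39 T cells held 97175 UMIs.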
